A study of Mus musculus with 2 samples.

Results

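The genes described here are 9 imprinted genes with roles in growth: H19, Igf2, Dlk1, Meg3, Peg3, Plagl1, Mest, Grb10 and Igf2r. They were chosen by name from a list of 10 symbols, and each of the 9 matched 1 row of the 32285 genes in the files. The remaining symbol, Zac1, had no row, and RefSeq gives it as a synonym of Plagl1. The study measured RNA in single cells of limb skeletal muscle from wild-type (WT) C57Bl/6 mouse embryos of 2 ages counted in days of embryonic development, E12.5 and E15.5. Each age had 1 droplet library, made with the 10x Chromium 3-prime chemistry after mechanical and trypsin dissociation, and forelimbs and hindlimbs went in together. The number and the sex of the embryos are not in the labels. The 2 ages lie in the embryonic and the foetal phase of muscle formation.

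An imprinted gene is read mainly from the copy inherited from 1 parent, through methylation marks set in the egg or sperm. Many genes read from the father's copy promote growth of the foetus, among them Igf2, Dlk1, Peg3, Plagl1 and Mest, while several read from the mother's copy restrain it, among them H19, Grb10 and Igf2r. In skeletal muscle H19 and Igf2 are abundant before birth and decline afterwards, and Dlk1 takes part in the formation and growth of muscle fibres. The counts do not tell the parental copies apart, so that all values are sums over both.

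Filters and doublet removal left 11001 and 3916 cells of the E12.5 and E15.5 libraries, with median depths of 2318 and 9291 UMIs (unique molecular identifiers, each marking a captured RNA molecule). The 9 genes took 1.03% and 1.01% of the deposited UMIs. The libraries shared 17 barcodes, 12 of them among kept cells. Cell classes were rebuilt by clustering each library without the members, other imprinted genes or proliferation genes, and were named from markers. The muscle-like class held 587 and 397 cells, and the connective tissue-like class held 8119 and 1283 cells. Each of the 23 muscle markers had at least 1 UMI in the summed muscle-like class at both ages. No cluster name was given to 880 and 1002 cells, and these enter none of the named classes. Levels are UMIs summed over a class and scaled by all UMIs of that class to CPM (counts per 1000000). Brackets hold 95% intervals that cover counting error only, and with 1 library per age no difference has a replicate check and none was tested. Some molecules come from RNA free in the droplets. The immune-like class, which served as background, held 48 and 81 cells of the earlier and the later age, with median depths of 4635.5 and 10487 UMIs.

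H19 and Igf2 lie side by side on the minus strand of chromosome 7 (GRCm38), H19 at chr7:142575529-142578143 and Igf2 at chr7:142650766-142666816, with 72622 bases between them. H19 is a long noncoding RNA and Igf2 encodes insulin-like growth factor 2, a secreted growth factor. In the GENCODE annotation, exons of Igf2 overlap those of Gm49394 on the same strand and Igf2os on the opposite strand, so that shared reads could have been counted for either. H19 also carries the precursor of miR-675 on its own strand, whose arms RefSeq gives as below with the seed (bases 2 to 8) in capitals. They are shown because they identify a known product of H19, and the UMIs of H19 do not measure them.
mmu-miR-675-5p: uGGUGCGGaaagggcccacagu
mmu-miR-675-3p: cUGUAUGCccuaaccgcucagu

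H19 and Igf2 were lower at E15.5 than at E12.5 in muscle-like cells. H19 stood at 1819.8 CPM [1766, 1874] in the E12.5 library and at 838 CPM [816, 862] in the E15.5 library, and its log2 ratio (E15.5 over E12.5) was -1.12 [-1.18, -1.06]. Igf2 stood at 1541 CPM [1492, 1591] and 513 CPM [495, 531], a log2 ratio of -1.59 [-1.66, -1.52]. The intervals of the 2 ages did not overlap for either gene. Both were lower by more than the median of all 11229 genes with at least 20 UMIs in the muscle-like class, which was -0.35. Set relative to that median, Igf2 was still more than 2-fold lower, at a log2 ratio of -1.24, and H19 was not, at -0.77. H19 was also under 2-fold, at -0.96, with each cell counted equally and with abundant genes left out of the total.

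The difference was smaller in connective tissue-like cells. There H19 went from 2014 CPM [1994, 2034] to 1499 CPM [1478, 1519.7] and Igf2 from 1948 CPM [1928, 1967] to 1083 CPM [1066, 1101]. The log2 ratios were -0.43 [-0.45, -0.40] and -0.85 [-0.87, -0.82], against a median of -0.36 over 15082 genes, so that H19 was close to the median gene and Igf2 below it. In chondrocyte-like cells H19 and Igf2 were at their highest at both ages, with H19 at 4083 and 2178 CPM and Igf2 at 2916 and 1200.3 CPM. Endothelial-like cells kept H19 at 1714 and 1779.7 CPM, with overlapping intervals, while Igf2 stood at 1587 and 928 CPM. Igf2 was thus lower at E15.5 in all 4 classes compared, and H19 in 3 of them.

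At E15.5 the order of the classes for H19 was chondrocyte-like, endothelial-like, connective tissue-like, mural-like (1159.9 CPM), tenocyte-like (1146 CPM), muscle-like, Schwann-like (335 CPM), mast-like (164 CPM) and immune-like (114 CPM). The mural-like and tenocyte-like intervals overlapped. For Igf2 the low end was immune-like at 93.1, Schwann-like at 91.1 and mast-like at 51.4 CPM, so that Igf2 in the Schwann-like cells, whose leading genes included the melanocyte genes Dct and Pmel, was at background. The immune-like level was 8.53% of the whole library's for H19 and 10.8% for Igf2, and at E12.5 it was 14.4% and 16.1%. Erythroid-like cells, which were few and should also lack these RNAs, held more. At E12.5, 41 such cells stood at 26.9% of the library's level for H19, 22.6% for Igf2 and 21.1% for Dlk1. At E15.5, 17 such cells stood at 61.2% for H19 (819 CPM), 57.0% for Igf2 (492 CPM) and 67.0% for Dlk1 (1060.4 CPM). An immune-like cluster of 22 shallow cells at E15.5 (median 1483.5 UMIs) had 734 CPM of H19 and 616 CPM of Igf2. The muscle-like and connective tissue-like levels of H19 and Igf2 thus lay above the summed immune-like level at both ages, but the muscle-like levels at E15.5 were close to those of the erythroid-like cells. The part of free RNA or of mixed droplets in these levels was not tested.

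**Figure D1:**
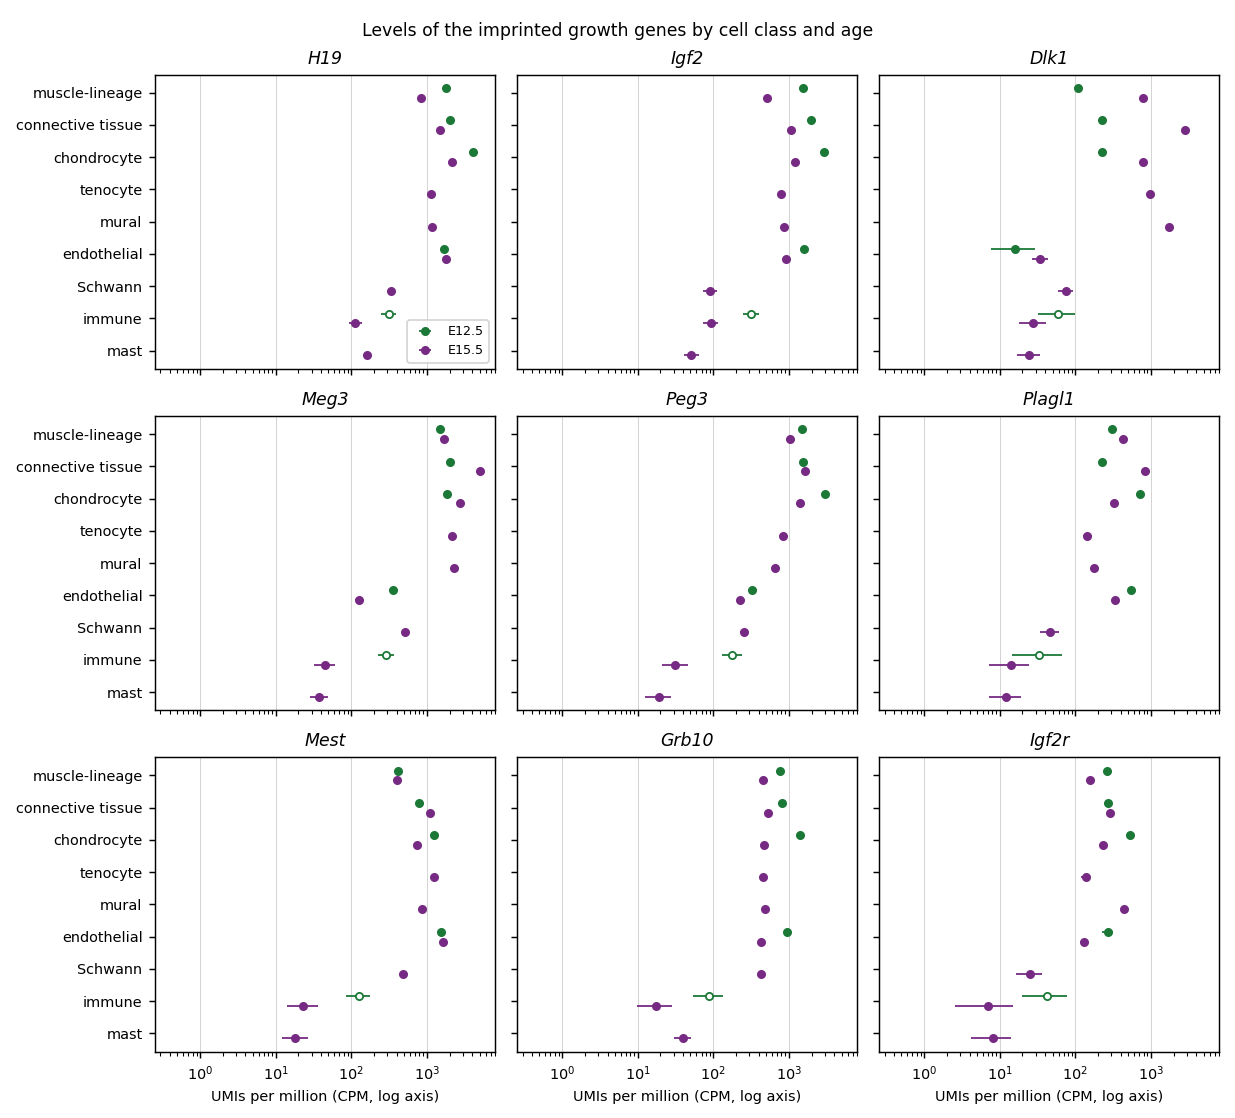
Level of each gene in CPM (log axis) by cell class, named from markers, at E12.5 (green) and E15.5 (purple); points are sums over the cells of a class in 1 library, bars are 95% counting intervals, and open points mark classes under 50 cells. Dlk1 at E15.5 spans 24.3 CPM in mast-like to 2839 CPM in connective tissue-like cells.

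Counted by cells, H19 and Igf2 were found in most muscle-like cells. In cells thinned to 2000 UMIs, 91.8% [89.2, 94.0] of 539 muscle-like cells of E12.5 had an H19 UMI, and 77.2% [72.8, 81.3] of 391 of those of E15.5, against 34.0% and 13.1% of immune-like cells. For Igf2 the muscle-like shares were 92.8% [90.2, 94.8] and 63.4% [58.4, 68.2], against 31.9% and 21.3%. Both genes were therefore found in fewer thinned cells at the later age. Without thinning the shares were 95.9% and 99.5% for H19 and 96.8% and 98.5% for Igf2, in libraries whose muscle-like cells had median depths of 3744 and 14256 UMIs. The median thinned muscle-like cell held 3 Igf2 UMIs in the E12.5 and 1 in the E15.5 library.

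Dlk1 and Meg3 form the second pair of neighbours, on the plus strand of chromosome 12. Dlk1 lies at chr12:109452823-109463336 and Meg3 at chr12:109541001-109571726, with 77664 bases between them. Dlk1 encodes a transmembrane protein related to the Notch ligands and is read from the father's copy, and Meg3 is a long noncoding RNA read from the mother's. Their start regions are shown because the 2 genes were high in the same clusters, with Peg3 for comparison. The RefSeq sequences (GRCm38.p6) run from 250 bases before to 50 bases after a start site on the gene's strand. Capitals mark TGACGTCA (the cyclic AMP response element), GGGGCCCC (letters known for Plagl1 binding) and TATAAA (the TATA box), searched on both strands. The first 2 read the same on both strands.
Dlk1, chr12:109452573-109452872, plus strand: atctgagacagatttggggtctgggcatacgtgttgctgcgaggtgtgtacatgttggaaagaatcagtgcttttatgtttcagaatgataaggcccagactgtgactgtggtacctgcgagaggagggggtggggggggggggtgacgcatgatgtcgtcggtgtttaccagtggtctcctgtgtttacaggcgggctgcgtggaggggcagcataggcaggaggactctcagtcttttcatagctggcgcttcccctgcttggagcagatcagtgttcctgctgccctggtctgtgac
Meg3, chr12:109540746-109541045, plus strand: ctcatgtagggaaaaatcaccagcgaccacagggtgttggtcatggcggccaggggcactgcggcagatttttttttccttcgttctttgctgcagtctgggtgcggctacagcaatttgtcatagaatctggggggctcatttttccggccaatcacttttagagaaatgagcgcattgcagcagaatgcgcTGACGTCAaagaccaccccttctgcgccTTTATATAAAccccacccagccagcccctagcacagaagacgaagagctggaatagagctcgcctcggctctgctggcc
Peg3, chr7:6730370-6730669, minus strand: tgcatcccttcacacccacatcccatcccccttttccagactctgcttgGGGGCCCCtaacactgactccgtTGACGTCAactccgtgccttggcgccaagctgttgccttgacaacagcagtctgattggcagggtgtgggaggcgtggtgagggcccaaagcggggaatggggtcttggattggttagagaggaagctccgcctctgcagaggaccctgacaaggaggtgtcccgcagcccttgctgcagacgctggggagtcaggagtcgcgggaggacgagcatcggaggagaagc

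The Meg3 window was chosen for holding TGACGTCA, so that this match, 57 bases before the start, was fixed by the choice. It also held the TATA letters on both strands in 1 overlapping run. The Dlk1 window held none of the 3 motifs. The Peg3 window held TGACGTCA 178 bases and GGGGCCCC 201 bases before its start, and 263 of its 300 bases are shared with the window of Usp29, which starts on the other strand. Of 32851 such windows of 300 bases, 15 of them of members, 1.79% held TGACGTCA, 1.08% held GGGGCCCC and 13.6% held TATAAA. Of the 15 member windows, 2 held TGACGTCA, 1 held GGGGCCCC and 1 held TATAAA. These matches describe the letters only.

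Dlk1 was the member with the highest ratio between the ages in both main classes. In muscle-like cells it stood at 108 CPM [95.4, 122] in the E12.5 library and 799 CPM [776, 821] in the E15.5 library, 7.39-fold higher and a log2 ratio of 2.89 [2.71, 3.07]. In connective tissue-like cells it went from 227 CPM [221, 234] to 2839 CPM [2810.3, 2867], 12.48-fold higher and a log2 ratio of 3.64 [3.60, 3.69]. Cells without a cluster name enter neither value. At E15.5 they formed clusters of 410, 366 and 226 cells, with Dlk1 at 3122, 827 and 850 CPM. At E12.5 they formed clusters of 482 and 398 cells, with Dlk1 at 213 and 217 CPM. Chondrocyte-like cells had 227 and 782 CPM. Endothelial-like cells, at 16.0 and 34.5 CPM, lay at the immune-like levels of 58.5 CPM [32.0, 98.1] and 27.9 CPM [17.9, 41.6], so that no Dlk1 expression is read there. The muscle-like interval of E12.5 also overlapped the immune-like one, but this class level averages unlike clusters. A cluster of 48 cells led by sarcomere genes held 206 of the UMIs, at 715 CPM. The clusters led by Pax7 and by Myog, of 375 and 164 cells, held 27 and 29 UMIs. Their levels of 18.0 and 45.9 CPM lay below the immune-like 58.5 CPM. The muscle-like ratio thus starts from background in most cells and from clear expression in few. In male cells alone the log2 ratio was 2.04 in muscle-like and 2.98 in connective tissue-like cells, and in female cells 2.95 and 3.93. The muscle-like values rest on 137 and 66 male and 259 and 286 female cells of the 2 ages. With the immune-like level subtracted it was 3.96 in muscle-like cells. At E15.5 the muscle-like level of Dlk1 lay below the 1060.4 CPM of the 17 erythroid-like cells, and the connective tissue-like level above it.

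The share of cells with Dlk1 moved in the same direction. After thinning, 10.0% [7.62, 12.9] of E12.5 and 69.1% [64.2, 73.6] of E15.5 muscle-like cells had a Dlk1 UMI. For connective tissue-like cells, of which 4916 of 8119 and 1253 of 1283 were deep enough, the shares were 29.6% [28.3, 30.9] and 93.4% [91.9, 94.7]. The immune-like shares were 6.38% and 4.92%. Unthinned, the muscle-like shares were 14.99% and 96.0% and the connective tissue-like shares 32.2% and 97.6%.

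Dlk1 was lower in the muscle-like class as a whole than in the connective tissue-like class at both ages. This did not hold for all muscle-like cells of E12.5. A cluster of 48 of them, led by sarcomere genes, stood at 715 CPM from 206 UMIs, above the 227 CPM of the connective tissue-like class. The log2 ratio of muscle over connective tissue was -1.07 [-1.26, -0.89] in the E12.5 library and -1.83 [-1.87, -1.79] in the E15.5 library. At E12.5 it was -1.77 with the immune-like level subtracted and -1.48 with each cell counted equally. At E15.5 mural-like cells stood between them and tenocyte-like cells, at 1761 and 984 CPM. The muscle-like and chondrocyte-like intervals overlapped.

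Meg3 differed less between the ages, and more in connective tissue. In muscle-like cells it stood at 1507 CPM [1458, 1556] and 1680.3 CPM [1648, 1713], a log2 ratio of 0.16 [0.10, 0.21], and in connective tissue-like cells at 2052 CPM [2032, 2072] and 5036 CPM [4999, 5074], a log2 ratio of 1.30 [1.28, 1.31]. The connective tissue-like value at E15.5 included a shallow cluster of 84 cells, with a median of 3178 UMIs, in which Meg3 reached 19889 CPM and Meg3 and its neighbour Rian were among the leading genes. Without the shallow clusters of both libraries, an alternative added after seeing the data, the log2 ratio was 1.21. In male cells it was 0.96, just under 2-fold. Meg3 stood at 3500, 3102 and 618 CPM in the E15.5 clusters without a name, and at 2257 and 2269 CPM in those of E12.5. After thinning, 69.2% [65.1, 73.1] and 84.9% [81.0, 88.3] of muscle-like cells had a Meg3 UMI, against 21.3% and 8.20% of immune-like cells, and unthinned 81.4% and 97.5% did. Endothelial-like cells had 362 CPM at E12.5, near the immune-like background of 292 CPM, and 128 CPM at E15.5, where immune-like cells had 45.4 CPM. Exons of Meg3 overlap those of Gm26906 on the opposite strand and those of Gm27300, Mir1906-1 and Mir770 on the same strand.

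Muscle-like cells fell into clusters led by Pax7, a factor of muscle progenitors, by Myog, which drives differentiation, and by sarcomere genes such as Mylpf and Acta1. This split was made after the clusters had been seen. At E12.5 these clusters held 375, 164 and 48 cells, and at E15.5 the Pax7-led clusters held 311 and the sarcomere-led cluster 86. No cluster was led by Myog at E15.5. Pax7 itself stood at 188 CPM in the Pax7-led and at 6.33 CPM in the Myog-led cluster of E12.5.

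Dlk1 differed more across these clusters at E12.5 than at E15.5. At E12.5 it stood at 18.0 CPM [11.8, 26.1] in the Pax7-led cluster, from 27 UMIs, at 45.9 CPM [30.7, 65.9] in the Myog-led and at 715 CPM [621, 819.8] in the sarcomere-led cluster. The Pax7-led and Myog-led levels lay below the immune-like one of 58.5 CPM, so that Dlk1 was not detectable above background in these cells. At E15.5 Dlk1 stood at 761 CPM [737, 786] in the Pax7-led clusters and at 943 CPM [890.5, 999] in the sarcomere-led cluster. After thinning, 3.801% [2.04, 6.41] of E12.5 and 72.0% [66.7, 76.9] of E15.5 Pax7-led cells had a Dlk1 UMI, while in sarcomere-led cells the shares were 68.1% [52.9, 80.9] and 57.5% [45.9, 68.5].

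The log2 ratio of Dlk1 between the ages was 5.41 [4.86, 6.01] in Pax7-led cells, from a base at background, and 0.40 [0.19, 0.62] in sarcomere-led cells. The sarcomere-led clusters of the 2 ages held unlike cells. Acta1, the skeletal muscle actin gene, had a UMI in 95.7% of thinned cells at E12.5 and in 35% at E15.5, Myog stood at 833 and 2036 CPM, and Myh3, the embryonic myosin gene, at 6325 and 1174 CPM. The Myog-led cluster of E12.5 enters neither ratio, and no separate cluster of this kind formed at E15.5. In the sarcomere-led cluster of E15.5, 98.75% of thinned cells had a Myog UMI. Whether cells like the Myog-led ones of E12.5 were among them was not tested. The sarcomere-led ratio depended on how the cells were grouped, with 2.54 for all deposited barcodes, 1.65 at the higher clustering resolution, 1.53 with both libraries clustered together and -0.47 in male cells, of which 14 and 16 were sarcomere-led. Sarcomere-led over Pax7-led Dlk1 was 5.32 [4.73, 5.95] in the E12.5 library and 0.31 [0.21, 0.40] in the E15.5 library. The E12.5 value lay between 4.39 and 5.46 under the alternatives run, and the E15.5 value between -0.064 and 1.57. The proliferation list of 25 genes summed to 5753 and 5889.8 CPM in the Pax7-led cells of the 2 ages and to 430.5 and 451 CPM in the sarcomere-led cells, and its part in these differences was not tested.

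**Figure D2:**
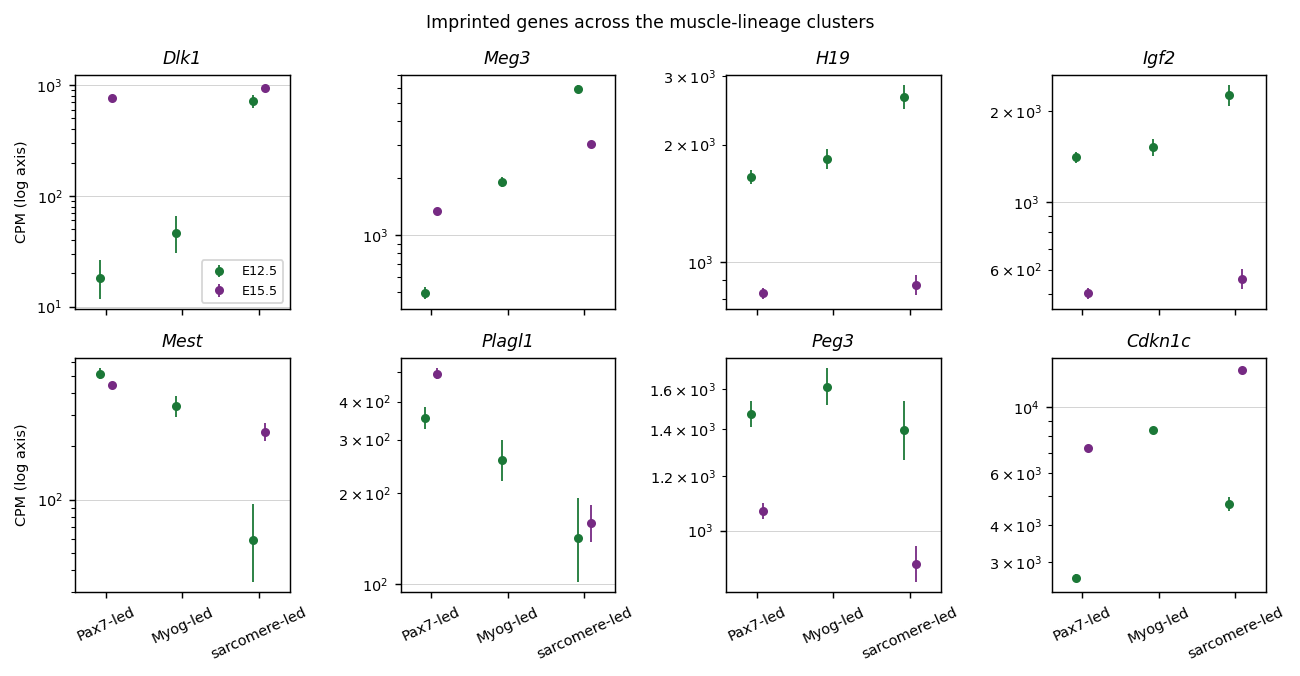
Level in CPM (log axis, a scale of its own in each panel) of 8 imprinted genes in muscle-like clusters led by Pax7, Myog or sarcomere genes, at E12.5 (green) and E15.5 (purple), with 95% counting intervals. Dlk1 goes from 18.0 to 715 CPM across the E12.5 clusters, with the Pax7-led and Myog-led levels at background, and stays at 761 and 943 CPM at E15.5.

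Meg3 had the same order across the muscle-like clusters at both ages. It stood at 497 CPM [462, 534], 1909 CPM [1803, 2019] and 5895 CPM [5618, 6182] in the Pax7-led, Myog-led and sarcomere-led clusters of E12.5. At E15.5 it stood at 1340.0 CPM [1308, 1373] in the Pax7-led and 3009 CPM [2914, 3106] in the sarcomere-led cells. Between the ages it was thus higher in Pax7-led cells, at a log2 ratio of 1.43 [1.32, 1.54], and lower in sarcomere-led cells, at -0.97 [-1.05, -0.89], while the whole muscle-like class had a ratio of 0.16.

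H19 and Igf2 were also highest in the sarcomere-led cluster at E12.5, where H19 stood at 2649 CPM [2464, 2844] against 1653 CPM [1588, 1719] in Pax7-led cells and Igf2 at 2260.0 CPM [2089.7, 2440.5] against 1411 CPM [1351, 1472]. At E15.5 the clusters were closer, with H19 at 830.0 and 871 CPM and Igf2 at 501 and 558 CPM, and the H19 intervals overlapped. The age ratios were -1.60 [-1.74, -1.47] for H19 and -2.02 [-2.17, -1.86] for Igf2 in sarcomere-led cells, and -0.99 [-1.07, -0.92] and -1.49 [-1.58, -1.41] in Pax7-led cells. Both genes were lower at E15.5 in both kinds of cluster.

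Mest and Plagl1 were lower in the sarcomere-led than in the Pax7-led cells at both ages. Mest, which encodes an enzyme of the alpha/beta hydrolase fold, stood at 515 CPM [479, 552] in Pax7-led cells and 59.0 CPM [34.4, 94.5] in sarcomere-led cells at E12.5, the latter below the immune-like 125 CPM, and at 442 and 242 CPM at E15.5. Plagl1, a zinc finger transcription factor, was at 354 and 142 CPM at E12.5 and at 495 and 159 CPM at E15.5. In the Myog-led cluster of E12.5 they stood between, at 337 and 256 CPM, an order that is the reverse of that of Meg3. Cdkn1c, an imprinted cyclin-dependent kinase inhibitor from the list of other imprinted genes, peaked in the Myog-led cluster at E12.5, at 8384 CPM [8160.1, 8613], above 2655 CPM in Pax7-led and 4721 CPM in sarcomere-led cells. Peg3 varied little, from 1396 to 1613 CPM in the E12.5 clusters and from 896 to 1067 CPM at E15.5.

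The growth regulators Peg3 and Plagl1 differed between classes. Peg3, a zinc finger protein gene at chr7:6703892-6730431 on the minus strand, stood at 1501 CPM [1452, 1550.5] and 1032 CPM [1007, 1058] in muscle-like cells, a log2 ratio of -0.54 [-0.60, -0.48], and at 1542 CPM [1524, 1559] and 1621 CPM [1599, 1642] in connective tissue-like cells, a log2 ratio of 0.072 [0.047, 0.10]. Plagl1, at chr10:13060504-13131694 on the plus strand, went from 228 CPM [221, 235] to 845 CPM [829, 860.4] in connective tissue-like cells, 3.71-fold higher, and from 303 CPM [282, 326] to 426 CPM [410.3, 443] in muscle-like cells. In the chondrocyte-like class as a whole it went the other way, from 709 CPM [679.8, 739] to 330.0 CPM [313, 348], a log2 ratio of -1.10 [-1.20, -1.005]. The chondrocyte-like clusters of the 2 ages were led by unlike genes. Both E12.5 clusters had Matn1, Hapln1 and Acan among their leading genes, and Plagl1 at 710 and 704 CPM. At E15.5 a cluster of 43 cells had these leading genes, with Plagl1 at 841 CPM. The clusters of 374 and 97 cells, with Sox9 among their leading genes, had 287 and 250 CPM. The share of thinned connective tissue-like cells with a Plagl1 UMI was 29.9% [28.6, 31.2] and 72.9% [70.3, 75.3], and 33.2% and 92.0% unthinned, while immune-like cells had 0 of 47, with an exact upper bound of 7.55%, and 1.64%. At E12.5 Plagl1 was higher in the chondrocyte-like than the connective tissue-like class, and at E15.5 lower in the class as a whole. In the E15.5 clusters without a name it stood at 1009, 276 and 285 CPM, and in those of E12.5 at 251 and 275 CPM. Within the connective tissue-like class of E12.5 it was highest in the clusters led by Gdf5, a growth factor of forming joints, at 567 and 576 CPM.

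Mest was highest in endothelial-like cells. It stood there at 1529.5 CPM [1434, 1629.7] in the E12.5 library and 1622 CPM [1568, 1677] in the E15.5 library, above all other classes of at least 50 cells at both ages. In muscle-like cells it was 414 and 401 CPM, with overlapping intervals and a log2 ratio of -0.046 [-0.15, 0.061] whose sign turned under 3 of 13 alternatives, to between 0.11 and 0.39. In connective tissue-like cells it was 800.2 and 1100.1 CPM. Mest lies at chr6:30723547-30748465 on the plus strand, and exons of Copg2 overlap its exons on the other strand.

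The members that restrain insulin-like growth factor signalling were lower at E15.5 in muscle-like cells. Grb10, at chr11:11930508-12038683 on the minus strand, encodes an adaptor that dampens insulin and IGF receptors, and stood at 769 CPM [735, 805] and 452 CPM [436, 469.5], a log2 ratio of -0.77 [-0.85, -0.68]. Igf2r, at chr17:12682406-12769664 on the minus strand, encodes the receptor that takes up IGF2 for breakdown, and stood at 266 CPM [246, 287] and 155 CPM [145, 165], a log2 ratio of -0.78 [-0.93, -0.63]. The median gene of the muscle-like class was at -0.35. Relative to it, Grb10 was at -0.42 and Igf2r at -0.43, both under 2-fold. In connective tissue-like cells Grb10 was at 806 and 529 CPM and Igf2r at 273 and 291 CPM. Grb10 was lower at E15.5 in all 4 classes compared. The sign of the Igf2r ratio in connective tissue-like cells, 0.092 [0.032, 0.15], turned with no doublets removed and in male cells, at -0.0079 and -0.19. Igf2r was highest at E15.5 in mural-like cells, at 439 CPM [409, 471].

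**Figure D3:**
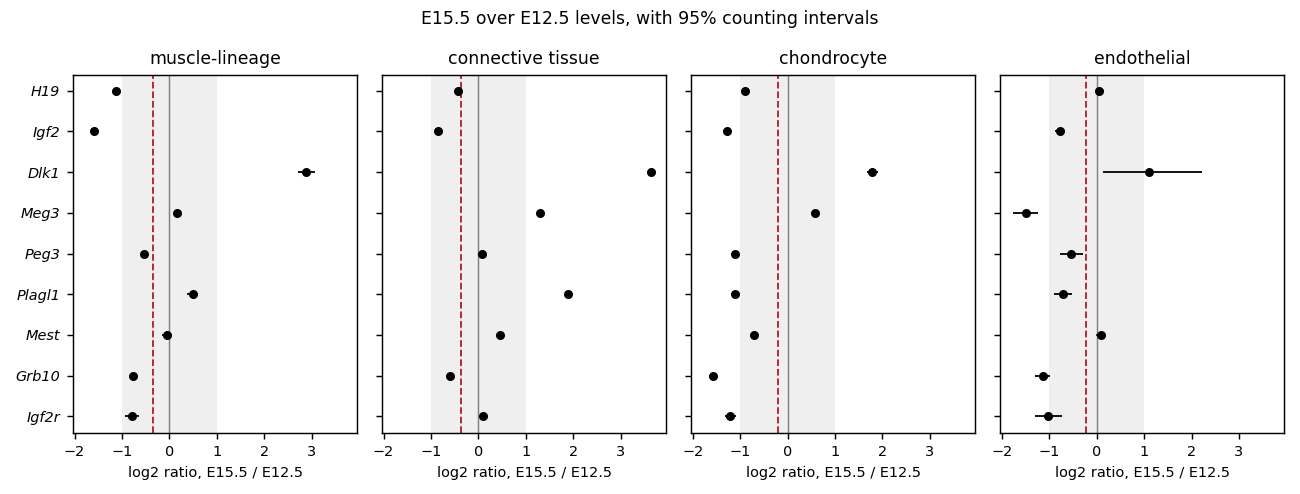
Log2 ratio of each gene's level at E15.5 over E12.5 in 4 classes named from markers, with 95% counting intervals; the red dashed line is the median of all genes with at least 20 UMIs and the grey band spans less than a 2-fold difference. Dlk1 is past 2-fold in every panel, though in endothelial-like cells it is at background, and Igf2 is left of 0 in every panel.

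Set against all genes, the members' counts were as follows, with a call at 2-fold or more. In muscle-like cells 1 of 9 members (Dlk1) was called higher at E15.5, where 4.78% of all genes were, and 2 (H19 and Igf2) were called lower, where 18.7% were. In connective tissue-like cells 3 (Dlk1, Meg3 and Plagl1) were higher, where 10.4% of genes were, and 0 lower, where 23.6% were. In chondrocyte-like cells 1 was higher (background 10.4%) and 5 lower (background 13.8%), and in endothelial-like cells 1 was higher (background 7.03%) and 3 lower (background 12.3%). In Pax7-led muscle-like cells 2 were higher (background 5.45%) and 1 lower (background 17.3%), and in sarcomere-led cells 1 was higher (background 11.6%) and 3 lower (background 19.8%). The 1 higher member was Dlk1 in chondrocyte-like and endothelial-like cells and Mest in sarcomere-led cells, the last 2 of these from a level at background. The counts of lower members in muscle-like cells were near the background share. Those of higher members in connective tissue-like cells, and of lower members in chondrocyte-like and endothelial-like cells, were above it. The 5 in chondrocyte-like cells compare clusters led by unlike genes. Both E12.5 clusters and an E15.5 cluster of 43 cells had Matn1 among their leading genes. Between these, Igf2 went from 2998 and 2664 to 1261 CPM and Grb10 from 1447 and 1303 to 627 CPM, both past 2-fold. Peg3 (3193 and 2396 to 1878 CPM) and Igf2r (536 and 531 to 389 CPM) were under 2-fold lower. Plagl1 was higher, from 710 and 704 to 841 CPM. The median log2 ratio of the 9 members was -0.54 in muscle-like and 0.092 in connective tissue-like cells, beside -0.35 and -0.36 over all genes. In chondrocyte-like cells it was -1.10, beside -0.21 over all genes. Members thus differed in both directions within a class.

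Other imprinted genes, from a list of 36, included some that were lower at E15.5 and some that were higher. In muscle-like cells 28 were measured, of which 0 were at least 2-fold higher (all genes 4.78%) and 6 at least 2-fold lower (all genes 18.7%), with a median of -0.42. The Pax7-led clusters had 2 higher (all genes 5.45%) and 6 lower (all genes 17.3%) of 27. The sarcomere-led clusters had 2 higher (all genes 11.6%) and 6 lower (all genes 19.8%) of 23. In the whole muscle-like class, Nnat, a neuronatin gene, went from 610.2 to 132 CPM and Copg2 from 62.3 to 23.5 CPM. Kcnq1ot1, the noncoding RNA of the Cdkn1c domain, went there from 1664 to 714 CPM. Cdkn1c itself went from 4395 to 8534 CPM in that class, just under 2-fold. In connective tissue-like cells 34 were measured, of which 7 were higher (all genes 10.4%) and 5 lower (all genes 23.6%), with a median of -0.041. Cdkn1c (1692 to 4893 CPM), Ndn (114 to 434 CPM) and Zim1 (36.2 to 97.5 CPM) were among the higher ones. Nnat (316 to 28.4 CPM), Asb4 (153 to 51.2 CPM), Ppp1r9a (137 to 66.1 CPM) and Copg2 (74.2 to 15.2 CPM) were among the lower ones.

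The neighbours of Meg3 did not all follow it. Rian, the noncoding RNA downstream of Meg3, stood at 439 and 276 CPM in muscle-like cells, a log2 ratio of -0.67 [-0.78, -0.56], and at 536 and 669 CPM in connective tissue-like cells, a log2 ratio of 0.32 [0.28, 0.36]. Both ratios were below those of Meg3 in the same cells. Usp29, which starts beside Peg3, had log2 ratios of -0.38 [-0.56, -0.19] and -0.30 [-0.38, -0.23], beside -0.54 and 0.072 for Peg3. Dlk2, the paralogue of Dlk1, stood at 2.27 CPM or less in both classes at both ages.

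Igf2 acts through receptors and binding proteins, of which 15 genes were listed. In muscle-like cells 13 were measured, 2 were at least 2-fold higher at E15.5 (all genes 4.78%) and 6 at least 2-fold lower (all genes 18.7%). The RNA-binding protein genes Igf2bp1 (log2 ratio -1.99), Igf2bp2 (-1.02) and Igf2bp3 (-1.21) and the receptor substrates Irs1 (-1.38) and Irs2 (-1.14) were among the lower ones, with the binding protein gene Igfbp4 (-1.12). Igf1r, the receptor through which IGF1 and IGF2 signal, went from 281 to 158 CPM. The connective tissue-like class had 14 measured, with 4 higher (all genes 10.4%) and 3 lower (all genes 23.6%). Igf1 went there from 127 to 715 CPM and Igfbp6 from 0.764 to 61.8 CPM, while Igf1r went from 273 to 113 CPM. Igf2 and Igf1 thus differed in opposite directions in the connective tissue-like class. Of the 8 Notch genes listed beside Dlk1, 0 were higher and 2 lower in muscle-like cells, and of 7 measured in connective tissue-like cells 1 was higher and 2 lower, counts too small to read against the same shares of all genes.

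Within the connective tissue-like class the clusters of each library differed, and they were led by other genes at each age. At E12.5, with its 2 shallow clusters set aside, Dlk1 ran from 79.1 CPM in the cluster led by Aspn, Maf and Rspo3 to 702 CPM in the cluster led by Dcn, Grem1 and Kera. Meg3 was lowest and highest in the same clusters, at 969.9 and 4228 CPM, and Igf2 was highest in the latter at 2743 CPM. The remaining E12.5 clusters were led by genes such as Gdf5, Ebf2, Calb2 and Tbx18 or by cell cycle genes, and those of E15.5 by Fst, Dpt, Twist2, Spink6 or cell cycle genes. At E15.5 the cluster led by Fst, Sfrp4 and Clec3b had the highest Dlk1, at 3335 CPM. A cluster of 88 cells led by Twist2 and Irx genes had the lowest level of its class for all 9 members, with Dlk1 at 416, Meg3 at 1457, Plagl1 at 50.6 and H19 at 519 CPM.

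Over clusters of at least 50 cells, H19 followed Igf2 and Dlk1 followed Meg3. The Pearson correlation of log2(CPM + 10) for H19 and Igf2 was 0.80 over the 20 clusters of E12.5 and 0.98 over the 19 of E15.5. For Dlk1 and Meg3 it was 0.86 and 0.87, and for Meg3 and Rian 0.98 at both ages. Igf2 and Dlk1, which lie on different chromosomes, had 0.61 and 0.73 within the ages and 0.026 over the 39 clusters of both. H19 and Dlk1 had 0.16 and 0.64 within the ages and 0.038 over both. Clusters of 1 library share its depth and its free RNA, so that these values are descriptions. The E15.5 values include the mast-like cluster, which is low for all members. The immune-like clusters, all under 50 cells, enter none of them.

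**Figure D4:**
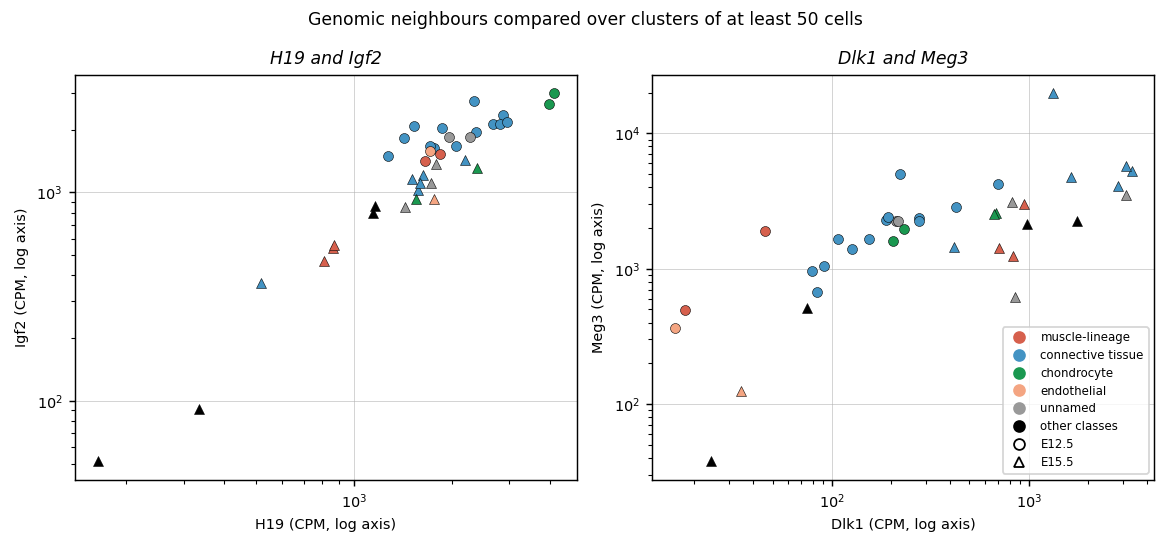
Levels in CPM (log axes) of H19 against Igf2 and of Dlk1 against Meg3, 1 point per cluster of at least 50 cells, circles for E12.5 and triangles for E15.5, coloured by class. H19 and Igf2 rise together, with correlations of 0.80 and 0.98 at the 2 ages, and the shallow E15.5 cluster stands apart with Meg3 at 19889 CPM.

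Over single cells the correlations were weaker. With every cell thinned to 2000 UMIs, the Spearman correlation of Dlk1 and Meg3 was 0.29 over 539 muscle-like and 0.31 over 4916 connective tissue-like cells at E12.5, the highest of the 36 pairs in both. At E15.5 it was 0.015 over 391 muscle-like and 0.23 over 1253 connective tissue-like cells. In the latter cells Dlk1 had 0.24 with Mest and 0.24 with Plagl1, both on other chromosomes. H19 and Igf2 had 0.21 and 0.16 in muscle-like cells and 0.29 and 0.25 in connective tissue-like cells. The H19 and Igf2 pair was highest in connective tissue-like cells at E15.5, and Peg3 and Plagl1 were highest in muscle-like cells at E15.5, at 0.18. Meg3 and Mest were lowest in muscle-like cells at both ages, at -0.19 and -0.069.

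Dlk1 and Igf2 had correlations over cells of 0.17 and 0.0056 in muscle-like and 0.14 and 0.15 in connective tissue-like cells. H19 and Dlk1 had 0.14 and 0.022, and 0.044 and 0.10. Over all pairs of genes at least as abundant as the lowest member, the 99th percentile was 0.13 and 0.17 in muscle-like and 0.10 and 0.25 in connective tissue-like cells at E12.5 and E15.5. Cells of a class share their library and the clusters in it, and their counts were sparse, so that weak values are no finding. H19 and Igf2 stood above the 99th percentile in all but the muscle-like cells of E15.5. Dlk1 stood above it with Meg3 and with Igf2 in both classes of E12.5, and with H19 in the muscle-like class of E12.5. None of these 3 pairs of Dlk1 did so in the classes of E15.5. Values for H19 and Igf2 moved with depth, from 0.044 after thinning to 1000 UMIs to 0.33 without thinning in muscle-like cells at E15.5.

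**Figure D5:**
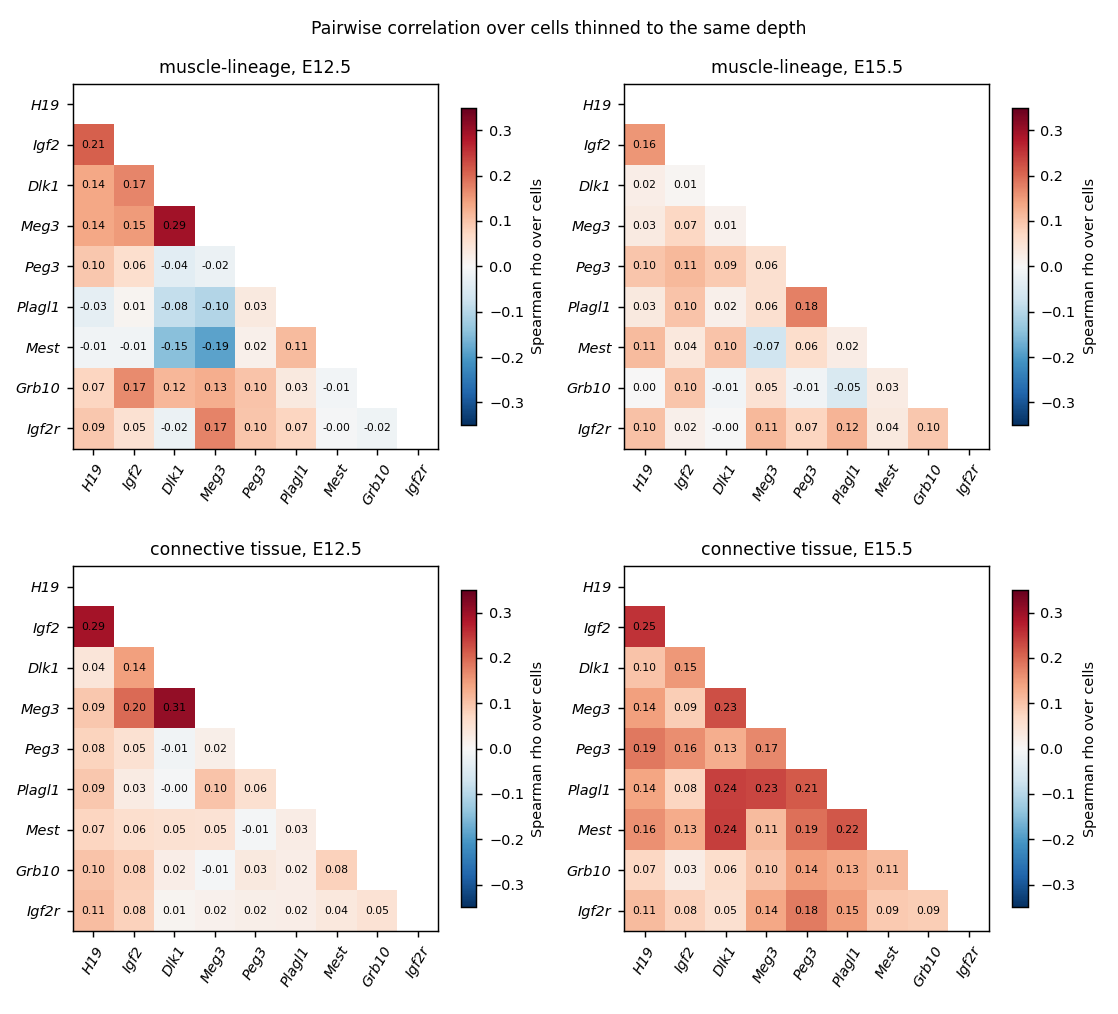
Spearman correlation over cells, each thinned to 2000 UMIs, for the 36 pairs of members in muscle-lineage (top) and connective tissue (bottom) cells at E12.5 (left) and E15.5 (right); numbers are the correlations. The highest value is 0.31, for Dlk1 and Meg3 in connective tissue-like cells at E12.5.

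Compared over the 13 classes of at least 50 cells in the 2 libraries, the gene most like H19 among 6607 was Igf2, with a Pearson correlation of log2(CPM + 10) of 0.966, and the gene most like Igf2 was H19. The gene most like Meg3 was Rian (0.977), that most like Peg3 was Usp29 (0.971) and that most like Igf2r was Airn (0.960), each of them a neighbour or an overlapping transcript of the member. C430049B03Rik was among the 3 most like genes of H19, Igf2, Plagl1 and Igf2r, at 0.964, 0.961, 0.951 and 0.954. Dlk1 was most like Bcl7c (0.951), Col6a2 (0.950) and Col6a1 (0.947), the latter both collagen VI chains of the connective tissue matrix. Mest was most like Pxdn (0.958) and Grb10 most like Parva (0.965). The immune-like and mast-like classes were low for the members, which all of these comparisons share.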

How the data were processed

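Values were deposited as whole-number UMI counts per gene and barcode, 1 matrix per library, made by the authors with Cell Ranger 4.0.0, per the file headers. Seurat 4.3.0 and the genome build mm10 are named in the submitters' processing notes. The annotation release and counting settings are not given in the sources used here.

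Barcodes with at least 500 genes and under 10% mitochondrial UMIs were kept, and simulated-doublet scores removed 1270 and 190 cells (10.3% and 4.63%). Each library was normalized, reduced to 30 components of 2000 variable genes and clustered separately (leidenalg 0.10.2, resolution 1, scikit-learn 1.9.0), leaving out 97 member, imprinted, proliferation and related genes. A class needed 3 markers at least 2-fold higher and in 10% of cells. Levels were summed UMIs scaled to CPM with exact Poisson intervals, ratios needed 20 UMIs over both libraries, and shares of cells have exact binomial intervals. Male and female cells were split by Xist and Y-linked UMIs. The depth was 34907675 and 46966083 UMIs. The intervals and thinning were tested on simulated data.

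The members and lists were chosen with earlier results of these data known. The naming rule for classes followed an earlier description and was set after clusters had been seen, as was the split of the muscle-like class by leading genes. Named were all members in classes of at least 50 cells, listed genes of at least 50 CPM in muscle-like or connective tissue-like cells, the 3 genes most like each member, and the highest and lowest pairs over cells with those of H19, Igf2 and Dlk1. Promoter and miRNA sequences came from RefSeq (GRCm38.p6), and positions from GENCODE (GRCm38), in which 32158 of the 32285 gene identifiers were found.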

Additional observations from a re-analysis of the deposited data

Results flagged for a closer look

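Peg3 and Igf2r stood lower at E15.5 than at E12.5 in muscle-like cells and slightly higher in connective tissue-like cells. The log2 ratios of Peg3 were -0.54 and 0.072, and those of Igf2r were -0.78 and 0.092. Each value rests on 1 library per age, and the difference between the classes was not tested. The connective tissue-like value of Igf2r turned to -0.0079 with no doublets removed and to -0.19 in male cells, while that of Peg3 stayed above 0 under the 14 alternatives run. Both classes had a median gene near -0.35 between the ages.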

How the results depend on the processing

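No paired analysis was possible because each age had 1 library and the labels give no replicate numbers. With 1 library per age no library could be left out, and age, library, embryos and depth cannot be told apart. Free RNA, estimated from the immune-like cells, limits low levels, above all Dlk1 at E12.5. Of the 18 main values, the sarcomere-led Dlk1 ratio and the E15.5 ratio of sarcomere-led over Pax7-led Dlk1 changed sign, both in male cells, and the others kept their direction under the alternatives run. Values are log2 ratios of E15.5 over E12.5 unless named otherwise. Without a minimum of 20 UMIs, the share of genes at least 2-fold lower was 32.3% in muscle-like and 24.6% in connective tissue-like cells, against 18.7% and 23.6%. Leaving out shallow clusters, chosen after seeing the data, moved no main value of the connective tissue-like class beyond its interval.

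Relative to the median gene, muscle-like and connective tissue-like ratios were -0.19 and 0.45 for the median of the 9 genes, -0.77 and -0.067 for H19, -1.24 and -0.49 for Igf2, and 3.23 and 4.0004 for Dlk1. With members, haemoglobin, mitochondrial and ribosomal genes left out of the total, they were -0.38 and 0.21 for the median, -0.96 and -0.31 for H19, and -1.43 and -0.73 for Igf2. Dlk1 was then 3.76 in connective tissue-like and 0.64 in sarcomere-led cells, and its muscle over connective tissue ratio at E15.5 was -1.67. With each cell counted equally, H19 was -0.96 and -0.46, Igf2 in muscle-like cells -1.50 and Dlk1 3.30. Dlk1 muscle over connective tissue was then -1.48 at E12.5, and sarcomere-led over Pax7-led 0.072 at E15.5. With the immune-like level subtracted, the median was -0.40 and 0.30, H19 -1.05 and -0.29, Dlk1 3.96 and 4.06, Igf2 in connective tissue-like cells -0.72, and Dlk1 muscle over connective tissue at E12.5 -1.77. The Pax7-led ratio of Dlk1 had no value there, since its E12.5 level was below the immune-like one.

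With all deposited barcodes, the connective tissue-like median was 0.012, Igf2 was -1.51 and -0.88, and Dlk1 was 3.59 in connective tissue-like and 2.54 in sarcomere-led cells. Sarcomere-led over Pax7-led Dlk1 was then 4.39 at E12.5 and 1.57 at E15.5. With at least 1000 genes per cell, H19 and Igf2 in connective tissue-like cells were -0.47 and -0.89. With no doublets removed, H19 and Dlk1 there were -0.46 and 3.69, Dlk1 was 4.55 in Pax7-led cells, and sarcomere-led over Pax7-led was 1.33 at E15.5. At resolution 0.5, Dlk1 was 3.84 in connective tissue-like cells and muscle over connective tissue -0.81 and -1.77 at E12.5 and E15.5. At resolution 2, H19 in connective tissue-like cells was -0.47, Dlk1 in sarcomere-led cells 1.65 and sarcomere-led over Pax7-led 1.34 at E15.5. No sarcomere-led cluster formed at E12.5 with no doublets removed or at resolution 0.5. With 4000 variable genes, the connective tissue-like median, H19 and Igf2 were 0.029, -0.52 and -0.90. With both libraries clustered together, they were 0.19, -0.22 and -0.78, Dlk1 was 3.69 in connective tissue-like and 1.53 in sarcomere-led cells, muscle over connective tissue was -1.78 and sarcomere-led over Pax7-led 1.32, both at E15.5.

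In male cells, the connective tissue-like median was 0.020, H19 was -1.29 and -0.40, Igf2 in connective tissue-like cells -0.98 and Dlk1 2.04 and 2.98. Dlk1 muscle over connective tissue was then -2.04 at E15.5, the Pax7-led ratio 4.76, the sarcomere-led ratio -0.47 and sarcomere-led over Pax7-led -0.064 at E15.5. In female cells, the connective tissue-like median, Igf2 and Dlk1 were 0.18, -0.81 and 3.93, and Dlk1 muscle over connective tissue was -0.82 at E12.5.

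The H19 and Igf2 correlation over muscle-like cells at E15.5 was 0.24 with at least 1000 genes, 0.10 with 4000 variable genes, 0.073 with joint clustering, 0.28 in male cells, 0.33 without thinning and 0.044 after thinning to 1000 UMIs. At E12.5 it was 0.26 in female cells and 0.31 without thinning. Over connective tissue-like cells at E15.5 it was 0.14 in male cells, 0.48 without thinning and 0.14 after thinning to 1000 UMIs, and at E12.5 it was 0.18 after thinning to 1000 UMIs. The causes of these shifts were not tested.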
